A study of Mus musculus with 9 samples.

Results

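Primed epiblast stem cells (EpiSCs) kept in FGF2 and activin were compared with naive embryonic stem cells (ESCs) kept in 2i, across every gene that had a probe set with a single gene symbol. The members are 6 of the 9 arrays in the series: the 3 titled as EpiSCs in FGF2/activin and the 3 titled as ESCs in 2i. The other 3 arrays, of EpiSCs in CHIR/XAV, are used here only as a second reference. Expression was read on Affymetrix mouse gene arrays of 1 colour, and the values are log2 expression summaries per gene. The comparison sets the standard primed culture against the standard naive culture of mouse pluripotent cells.

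The FGF2/activin EpiSCs were of strain CD1 and received FGF2 and activin, each at 10 ng/ml. The ESCs were of strain 129 and were in 2i, which is understood here as CHIR99021 (3 µM), an inhibitor of GSK3, with PD0325901 (1 µM), an inhibitor of MEK. The CHIR/XAV EpiSCs, also CD1, were in XAV939 (2 µM), which inhibits tankyrase, together with CHIR99021 (3 µM). All groups shared a medium with 10% fetal bovine serum. The labels list the doses for all samples together, so their assignment to groups follows the group names. Strain, cell type and PD0325901 all go together in the comparison with ESCs. So do CHIR99021, which the FGF2/activin EpiSCs lacked, and FGF2 and activin, which the ESCs lacked. The parts of all these factors in any difference cannot be told apart. CHIR99021 was shared by the ESCs and the CHIR/XAV EpiSCs, and its part in likenesses between these groups was not tested. The labels do not state whether a group's arrays stem from different cultures. The p-values therefore reflect array-to-array spread, possibly only technical.

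Naive ESCs correspond to the epiblast of the blastocyst before implantation, and 2i keeps them there by blocking ERK signalling and by stabilising beta-catenin. EpiSCs correspond to the epithelial epiblast after implantation, and FGF and activin keep them in that state through ERK and SMAD signalling. The passage from one to the other is known to involve epithelial organisation, a change of metabolism and the silencing of part of the germline programme.

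Expression differed widely between the groups, and mostly by small amounts. With limma and a Benjamini-Hochberg threshold of 0.05, 12216 of 19936 genes (61.3%) differed, with 5536 (27.8%) higher and 6680 (33.5%) lower in FGF2/activin EpiSCs. A change under 1.5-fold made up 66.3% of these calls. Changes of at least 2-fold numbered 2015 (10.1%), of which 1327 (6.66% of all genes) were rises and 688 (3.45%) falls. The median change of all genes was -0.08 on the log2 scale. The balance of small calls moved with the scaling of the arrays: 45.3% of called genes were higher with the deposited values, 55.1% when each array was centred on the median of all probe sets, and 34.9% when centred on the median of the single-symbol genes. The values of the 3 arrays in each group did not overlap for 66.6% of genes, so a lack of overlap by itself sets no gene apart here.

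**Figure D1:**
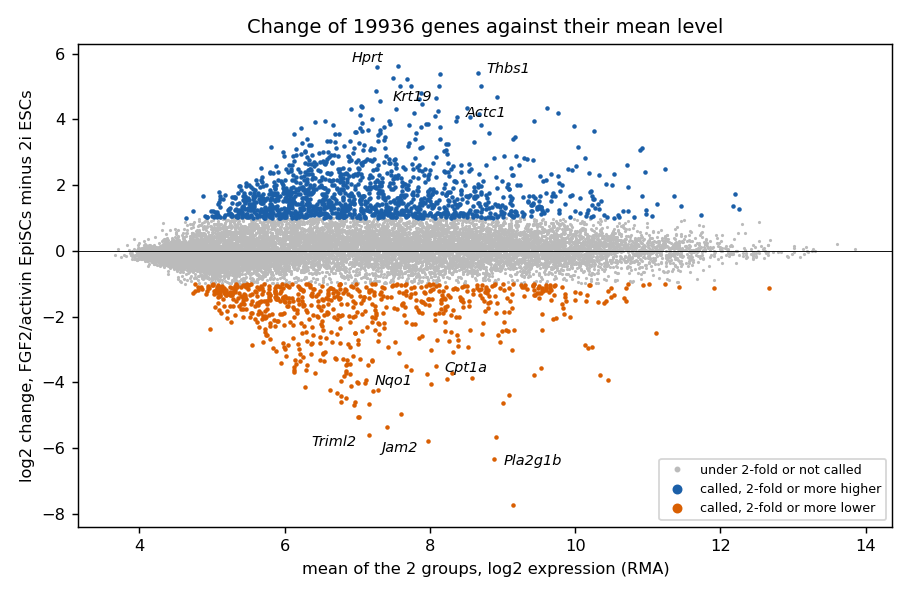
Log2 change between FGF2/activin EpiSCs and 2i ESCs (vertical axis) against the mean log2 expression of both groups (horizontal axis), 1 point per gene. The 1327 genes called and at least 2-fold higher are in blue and the 688 at least 2-fold lower in orange; changes of both signs reach past 5 log2 units.

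The labelled cell types were checked against their defining markers. Of 12 primed epiblast genes measured, 11 rose and none fell, with a median change of 1.72; Sox3 was not called. Of 12 genes of ESCs or of both pluripotent states, 9 fell and 2 rose (Utf1 and Pou5f1), and Dppa5a, an RNA-binding protein gene of ESCs, fell by 7.72. Markers of other cells that such cultures can hold moved in both directions. Of 14 fibroblast or feeder genes, 5 rose and 3 fell, none by 2-fold. The largest rises were those of S100a4, Twist2 and Postn, and the falls were those of Pdgfrb, Twist1 and Pdgfra. Dcn and Lum, which define fibroblasts, averaged 4.47 and 4.32 in FGF2/activin EpiSCs and 4.54 and 4.33 in ESCs. With the arrays centred on the single-symbol genes, 3 of the 14 rose and 5 fell. Of 11 neural genes, 5 rose and 3 fell: Nes, an intermediate filament gene, rose by 3.66, whereas Sox1 differed by 0.02 and Pax6 fell by 1.95. Of 14 primitive streak and mesoderm genes, 5 rose and 6 fell, with Wnt3 (2.36) and Eomes (2.32) highest, while Mixl1 fell by 0.41 and Mesp1 differed by -0.18. Of 13 trophoblast genes, 6 rose and 5 fell: Krt18, Krt8, Eomes, Ascl2, Hand1 and Gata3 rose, while Rhox6 fell by 2.17 and Tfap2c fell by 1.78. Of 14 extraembryonic endoderm genes, 4 rose and 9 fell, and of 11 definitive endoderm genes, 2 rose and 4 fell. Of 12 blood and endothelial genes, 3 rose and 3 fell, with Pecam1, a platelet and endothelial adhesion gene that ESCs also express, at -3.36. Among all genes, 27.8% were called higher and 33.5% lower. A count near these shares says little about the cell type of its list. The part of other cells in the results was not tested. In bulk RNA, fewer cells of a type and less RNA per cell cannot be told apart. Without detection calls, low values may be background, and a change measured against a dim group understates the true one.

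The microRNA genes of the miR-302 cluster gave 4 of the 12 largest rises outside the best known markers. This cluster is transcribed in primed pluripotent cells, and its mature microRNAs pair with targets through the seed, bases 2 to 8. Their mature sequences from RefSeq (GRCm38.p6) are shown here because members share seeds with each other. The seed of miR-367-3p is also that of microRNAs whose genes fell. The seed is in capitals.
miR-302b-3p: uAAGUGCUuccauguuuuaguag
miR-302d-3p: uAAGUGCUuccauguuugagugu
miR-302c-3p: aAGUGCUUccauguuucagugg
miR-302a-5p: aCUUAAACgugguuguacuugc
miR-367-3p: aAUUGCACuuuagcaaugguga
miR-25-3p: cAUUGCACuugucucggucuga
The 3p forms of miR-302b and miR-302d have the seed AAGUGCU, and that of miR-302c reads AGUGCUU, the same letters displaced by 1 base. For miR-302a the RefSeq sequences used here held only the 5p form. Its seed, CUUAAAC, belongs to the 5p arm and is not comparable with the 3p seeds shown. The 5p forms of miR-302b, miR-302c and miR-302d, which are not shown, have the seed CUUUAAC. The seed of miR-367-3p, AUUGCAC, is also that of miR-25-3p and of miR-363-3p, which is not shown. Mir25 and Mir363 were both called lower, Mir363 at a log2 change of -0.36.

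All 5 genes of the cluster rose. Mir302b was at 4.63, 4.34 and 4.48 on the ESC arrays and at 10.21, 9.96 and 10.03 on the FGF2/activin EpiSC arrays, a rise of 5.58 (SE 0.15, limma adjusted p = 4.8e-13, Benjamini-Hochberg). Mir302c rose by 5.27, Mir302d by 5.03 and Mir302a by 5.0. Mir367 rose least, by 2.89, from 4.67 to 7.56. Tested directly against CHIR/XAV EpiSCs, none of the 5 genes was higher and 2 were lower, with a median difference of -0.32. The choice of the largest rises required groups without overlap. Mir367, which was not chosen in that way, also had groups without overlap. The probe sets of such genes may read the precursor transcript, so these values are not levels of the mature microRNAs. Of the other 28 microRNA genes listed, Mir200b was called higher (0.28) and 11 were called lower. Mir25, on 6.45, 6.34 and 6.40 in ESCs and 5.97, 5.55 and 5.85 in FGF2/activin EpiSCs, fell by 0.61, and Mir19a of the miR-17/92 cluster by 0.73. None of the 8 let-7 genes rose, and Mirlet7i fell by 0.48. Over all 297 genes annotated as microRNAs, 11.1% were called higher and 35.7% lower, against 27.8% and 33.5% of all genes.

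The other 8 of the 12 largest rises were single genes of varied function. Thbs1, which encodes the matrix glycoprotein thrombospondin, was at 5.99, 5.94 and 5.95 in ESCs and at 11.40, 11.38 and 11.29 in FGF2/activin EpiSCs, a 42.1-fold rise (log2 change 5.39, SE 0.07). Sema6a, a transmembrane semaphorin gene, rose by 5.37, the keratin gene Krt19 by 5.22, and Has2, which encodes a hyaluronan synthase, by 4.86. Id2, an inhibitor of basic helix-loop-helix factors, rose by 5.02 and the zinc and manganese transporter gene Slc39a8 by 5.0. The choice of these genes required that the groups did not overlap. Ccn1, a matricellular gene long used as a readout of YAP, rose by 4.8. Hprt, which encodes the purine salvage enzyme, gave the largest rise of all genes: it was at 4.79, 4.72 and 4.75 in ESCs and at 10.39, 10.44 and 10.30 in FGF2/activin EpiSCs. Its level in the CHIR/XAV EpiSCs was 10.39, so both CD1 groups differ from the 129 ESCs in the same way at this gene.

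The largest fall outside the best known markers was that of Pla2g1b, a secreted phospholipase gene (log2 change -6.34, SE 0.07, limma adjusted p = 6.75e-16, Benjamini-Hochberg). Its values were 11.98, 12.03 and 12.16 in ESCs and 5.71, 5.65 and 5.78 in FGF2/activin EpiSCs, whereas the CHIR/XAV EpiSCs stood at 11.91. Jam2, a junctional adhesion molecule gene, fell by 5.78, from 10.94, 10.89 and 10.77 to 5.06, 5.15 and 5.04. Triml2 fell by 5.6 and Dnah8, an axonemal dynein gene, fell by 5.07. Tdrd12 and Morc1, both needed for transposon silencing in the male germline, also fell (-4.97 and -4.31). Apobec3, a cytidine deaminase gene that restricts retroviruses, fell by 4.67 on its brighter probe set (and -1.09 on the other). Calcoco2, an autophagy receptor gene, fell on both of its probe sets (-4.58 and -2.96). Alpl, whose product is the alkaline phosphatase used to stain ESCs, fell by 4.38, to a mean of 6.90. Lipo3, a lipase gene, and Slc15a1, a peptide transporter gene, fell as well (-4.48 and -4.42).

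**Figure D2:**
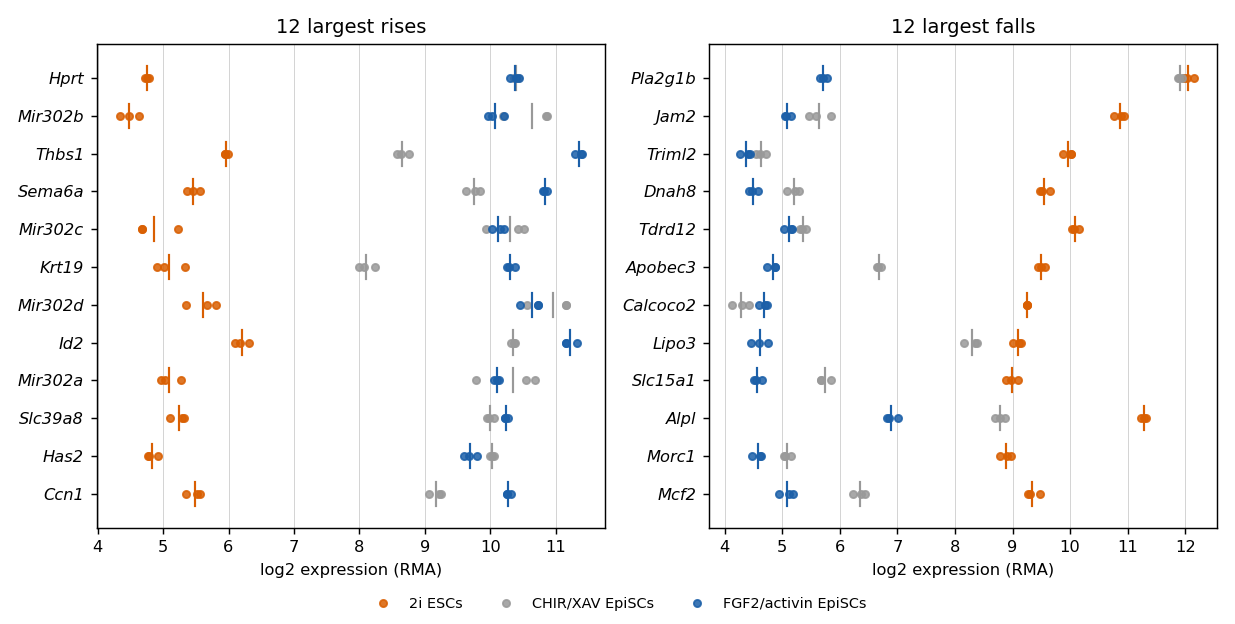
Log2 expression on each array for the 12 largest rises (left) and 12 largest falls (right), with 1 point per array and a bar at each group mean. ESC and FGF2/activin EpiSC points are separated for every gene because the choice of these genes required it. CHIR/XAV EpiSCs lie with the ESCs for Pla2g1b and with the FGF2/activin EpiSCs for Hprt.

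Gene lists were then read against the shares for all genes, 27.8% higher and 33.5% lower. Of 31 ERK feedback and ERK-induced genes measured, 25 rose and 3 fell, and the median change was 1.39. Among feedback inhibitors, Spry4 was at 4.64, 4.88 and 4.73 in ESCs and 9.26, 8.88 and 9.05 in FGF2/activin EpiSCs (a rise of 4.31), and the ERK phosphatase gene Dusp6 rose by 4.24 (SE 0.07). Neither pair of groups overlapped. Among induced factors, Jun rose by 3.46, Phlda1 by 3.07 and Myc by 2.66, and the serum response factor gene Srf itself by 1.39. The 3 members that fell were Etv5 (-0.84), Dusp7 (-0.50) and the Ras GTPase-activating protein gene Rasa1 (-0.29). For Etv5 the probe sets disagree: the dimmer one rose by 2.01, and with the mean of both the change was 0.58. The CHIR/XAV EpiSCs had, by their group name, neither PD0325901 nor added FGF2. Tested directly against them, 16 of the 31 genes were higher in FGF2/activin EpiSCs and 3 lower, with a median difference of 0.21. Of all genes, 21.1% were higher and 20.5% lower in that test. PD0325901, which blocks this pathway, is in the ESC medium only, and FGF2, which acts through ERK, is in the FGF2/activin medium only. Their parts and that of the cell type cannot be told apart.

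In the FGF list the ligand Fgf5 rose by 3.63 and Fgf8 by 1.12, while Fgf4 fell by 1.10. Of the receptors, Fgfr1 rose by 0.62 and Fgfr2 fell by 1.67. In all, 4 of 18 rose and 10 fell. In the LIF and STAT3 list 4 of 17 rose and 7 fell: the receptor genes Lifr and Il6st fell (-1.64 and -1.2), whereas the kinase gene Jak2 rose by 1.71 and Stat3 differed by 0.10. Jak2 was at 7.41, 7.42 and 7.28 in ESCs and 8.96, 9.13 and 9.14 in FGF2/activin EpiSCs, without overlap.

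Nodal and activin pathway genes moved in both directions, with 14 of 25 higher and 8 lower. The rises included the ligand Nodal (1.30), its coreceptor gene Tdgf1 (2.49), the ligand gene Tgfb2 (2.87) and Pmepa1 (1.83), a SMAD-induced inhibitor. Fst, which encodes the activin-binding protein follistatin, was at 5.78, 5.81 and 5.81 in ESCs and 9.61, 9.70 and 9.60 in FGF2/activin EpiSCs, a rise of 3.83. Lefty1 and Lefty2, Nodal antagonists that Nodal signalling induces, nevertheless fell (-1.10 and -2.34). Gdf3, a related ligand gene, fell by 3.36. The 3 groups differed in order at Lefty1, which averaged 8.99 in ESCs, 7.89 in FGF2/activin EpiSCs and 4.62 in CHIR/XAV EpiSCs.

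The BMP list was mixed, with 10 of 23 higher and 8 lower. Its Id genes, textbook BMP targets, parted: Id1 rose by 3.62, Id2 by 5.02 and Id3 by 2.35, while Id4 fell by 1.66. Bmp4, a ligand gene, fell by 1.66 and Bmp7 rose by 1.13. Id1 was at 5.27, 5.06 and 5.18 in ESCs and at 8.87, 8.72 and 8.78 in FGF2/activin EpiSCs, so the groups were far apart. Among Wnt genes (13 of 30 higher, 7 lower) the ligand gene Wnt8a rose by 4.12, Wnt3 by 2.36 and the receptor gene Fzd6 by 1.81, and the antagonist gene Sfrp2 fell by 1.88. In the retinoid list 8 of 17 rose, led by the retinol dehydrogenase gene Rdh10 (3.40), and 7 fell, led by the binding protein gene Crabp1 (-2.22). Of 18 Notch genes 8 rose and 4 fell, or 7 fell with arrays centred on the single-symbol genes. The receptor gene Notch3 rose by 1.98 and the ligand gene Jag2 by 1.88, Notch4 fell by 1.52, and the target gene Hes1 was not called, at means of 8.19 and 8.20.

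Contractile actin filaments carry tension in a cell. Of 32 genes of this cytoskeleton measured, 28 rose, 21 of them by 2-fold or more, and 1 fell, with a median change of 1.73. Actc1, the cardiac alpha-actin gene, was at 6.27, 6.12 and 6.62 in ESCs and at 10.43, 10.41 and 10.35 in FGF2/activin EpiSCs, a 16.6-fold rise (log2 change 4.06, SE 0.12, limma adjusted p = 1.05e-12, Benjamini-Hochberg). The skeletal and smooth muscle actin genes Acta1 and Acta2 rose by 2.61 and 2.43. The groups were well apart at each of these 3 genes. Among actin-binding proteins, the crosslinker gene Flnc rose by 3.85, caldesmon (Cald1) by 3.59 and transgelin (Tagln) by 3.34, and tropomyosins Tpm1, Tpm2 and Tpm4 rose by 2.26, 2.67 and 2.01. Nonmuscle myosin heavy chain Myh9 rose by 2.00. The member that fell was the myosin light chain gene Myl12b, by 1.44, from 11.29, 11.40 and 11.48 to 9.95, 9.84 and 10.07, while its neighbour in sequence Myl12a rose by 0.97. Whether probe sets of the near-identical actin genes share signal was not tested.

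The same list was tested directly between the EpiSC cultures, a comparison that shares the FGF2/activin arrays with the one above. Of all genes, 41.6% were called, 21.1% higher and 20.5% lower in FGF2/activin than in CHIR/XAV EpiSCs. Of the 32 contractile genes, 27 were higher and 2 lower, with a median difference of 0.93. Actc1 averaged 6.84 in CHIR/XAV EpiSCs, Acta2 5.96 and Tagln 5.80, and FGF2/activin EpiSCs lay above them by 3.56, 3.45 and 2.77. For Acta2 the CHIR/XAV mean was below the ESC mean of 6.98. The exceptions were Cnn1, a calponin gene at 8.85 in CHIR/XAV EpiSCs and 8.31 in FGF2/activin EpiSCs, and Myl12b. The EpiSC cultures also differed at sex-linked genes. Xist was at 9.12 in CHIR/XAV and 4.38 in FGF2/activin EpiSCs, and the Y-linked Eif2s3y at 4.41 and 9.61. At these genes the CHIR/XAV EpiSCs read as female and the FGF2/activin EpiSCs as male, and the labels used here do not name the lines. Line and sex therefore go with culture in every direct comparison of the EpiSC groups, and their parts cannot be told apart.

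The CArG box, the binding motif of serum response factor, was sought in RefSeq promoter windows of 300 bases (250 before a transcription start and 50 after, GRCm38.p6, both strands). It was in 17.6% of 34 windows of the contractile genes and in 1.63% of all 32851 windows. The genes with a match were Acta1, Actc1, Cnn2, Myl6, Myl9 and Vcl. Each of them rose, but so did 28 of the 32 genes of the list. The 250 bases before the start of Actc1 (chr2:114052876-114053125, minus strand), the member with a match that rose most, are shown with the CArG box in capitals.
Actc1: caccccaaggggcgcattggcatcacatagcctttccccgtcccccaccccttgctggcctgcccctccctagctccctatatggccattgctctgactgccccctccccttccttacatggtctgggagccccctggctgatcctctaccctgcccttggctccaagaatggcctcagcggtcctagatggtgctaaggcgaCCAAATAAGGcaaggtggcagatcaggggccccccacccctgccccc
A match is a description of the letters and not evidence of binding. Genes with several start sites contribute several windows.

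The YAP/TEAD factors act in the nucleus of spread and stretched cells and induce genes of matrix and adhesion. Of 23 of their known targets and partners measured, 21 rose and 1 fell, with a median change of 1.40. Without FGF2/activin replicate 1, 2 fell. After Thbs1 and Ccn1, the largest rises were those of Nt5e, an ecto-nucleotidase gene (4.30), and the caveolin gene Cav1 (3.54). Cav1 was at 4.24, 4.37 and 4.46 in ESCs and at 7.85, 8.04 and 7.79 in FGF2/activin EpiSCs, against a mean of 4.88 in CHIR/XAV EpiSCs. The pathway kinase gene Lats2 rose by 1.94 and the scaffold gene Amotl2 by 1.40. The factors themselves moved less: Tead3 rose by 1.46, Wwtr1 (TAZ) by 1.00 and Yap1 by 0.33, and Tead4 differed by -0.16. The exception was Ccn2 (CTGF), another classic target, at 7.28, 7.20 and 7.07 in ESCs and 6.10, 6.22 and 5.84 in FGF2/activin EpiSCs, a change of -1.13. Ccn2 averaged 9.17 in CHIR/XAV EpiSCs, 3.12 above FGF2/activin EpiSCs. Of the 23 genes, 19 were higher and 1 lower in the direct test against CHIR/XAV EpiSCs. Tgfb2 is counted in this list and in the Nodal list.

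The letters GGAATG, the core of the TEAD motif, or their reverse complement were in 60.0% of 25 promoter windows of these genes and in 14.7% of all windows. This list, and the ATF4-type and NRF2-type lists below, were built around known targets of a regulator. An excess of that regulator's motif was therefore partly set by the choice of genes. No window of the list held a CArG box, but only 1.63% of all windows did, so its absence from 25 windows says little. The 250 bases before the start of Ccn1 (chr3:145649986-145650235, minus strand), the member with a match that rose most, read as follows with the match in capitals.
Ccn1: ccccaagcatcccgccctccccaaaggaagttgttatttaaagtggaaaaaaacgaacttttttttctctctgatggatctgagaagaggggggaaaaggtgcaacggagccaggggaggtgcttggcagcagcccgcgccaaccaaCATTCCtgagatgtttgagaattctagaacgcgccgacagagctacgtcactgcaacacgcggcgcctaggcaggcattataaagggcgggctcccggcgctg

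**Figure D3:**
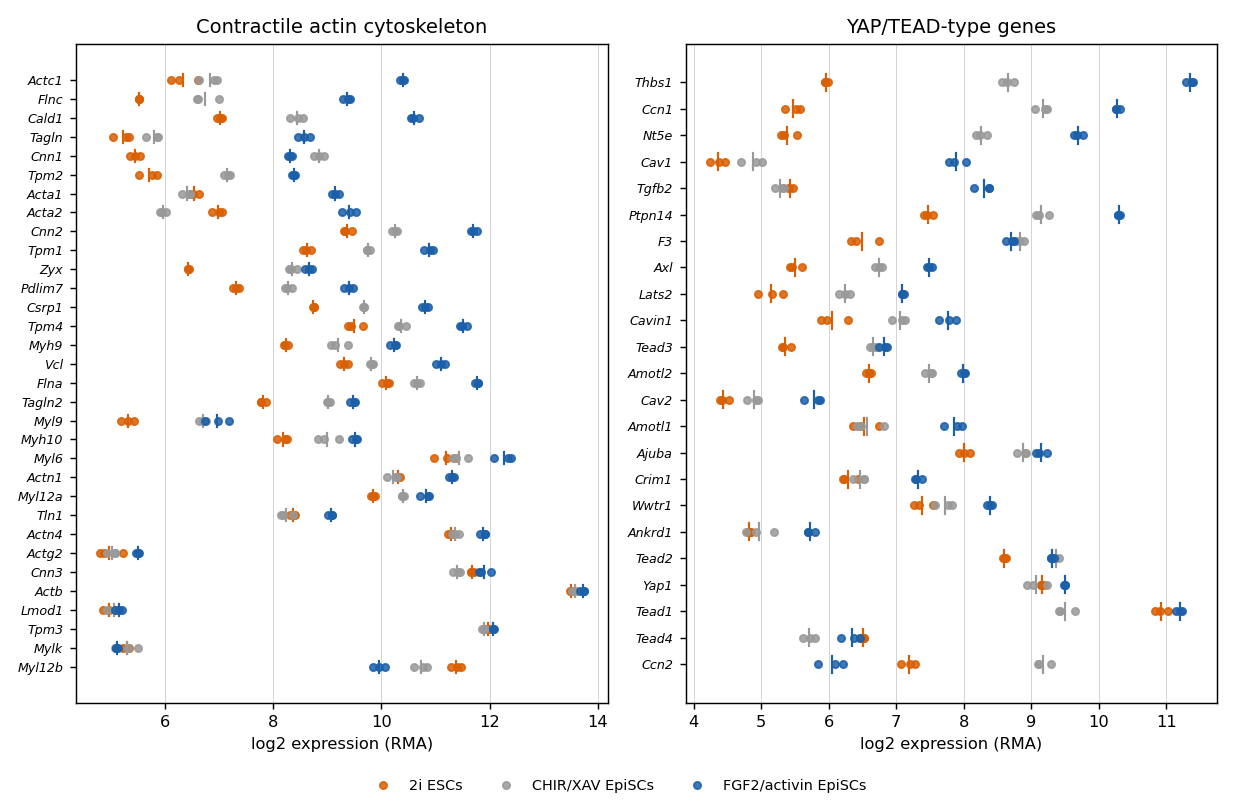
Log2 expression on each array for all 32 contractile actin genes (left) and all 23 YAP/TEAD-type genes (right), ordered by change, with 1 point per array and a bar at each group mean. Most genes have the FGF2/activin EpiSC points to the right; Myl12b and Ccn2 are the members that fell.

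Annexins and S100 proteins bind calcium and membranes. Of 17 annexin and S100 genes 11 rose and 1 fell, with a median of 0.78. Anxa2 was at 5.44, 5.53 and 5.63 in ESCs and 10.26, 10.14 and 10.08 in FGF2/activin EpiSCs, a rise of 4.63, and its partner gene S100a10 rose by 2.61. Anxa3 rose by 4.06, Anxa5 by 3.65 and S100a6 by 3.33, and S100a16 fell by 0.34.

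Integrins, keratins and junction proteins organise an epithelium. Of 17 integrin genes 11 rose and 3 fell (median 0.80). The laminin-binding subunit gene Itga3 was at 5.83, 5.61 and 5.62 in ESCs and 9.83, 9.97 and 9.79 in FGF2/activin EpiSCs, a rise of 4.18. Itga8 rose by 3.33, Itgb8 by 2.09 and the shared beta subunit Itgb1 by 1.81, while Itga9 fell by 1.38. Of 18 keratin and desmosome genes 11 rose and none fell. The simple-epithelium keratins Krt8 and Krt18 rose by 3.79 and 3.95, the junction gene Perp by 3.46 and desmoplakin (Dsp) by 2.89, whereas Krt7, another simple-epithelium keratin, and Krt5, of stratified epithelia, were not called and each differed by 0.14. Krt18 and Krt8 varied between ESC arrays, from 7.20 to 7.79 and from 7.84 to 8.49, and were still below every FGF2/activin value.

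Of 21 tight junction genes 14 rose and 3 fell. Cldn6 and Cldn7 rose by 3.40 and 2.70 and Cldn4 fell by 1.47, and Jam2 gave the largest fall. In the direct test against CHIR/XAV EpiSCs, 8 of the 21 tight junction genes were higher and 5 lower, with a median difference of 0.07. Of 21 cadherin and gap junction genes, 11 rose, 4 fell and 6 were not called. E-cadherin (Cdh1) rose by 1.02, and the falls included Cdhr1 (-1.10) and the protocadherin gene Pcdh19 (-1.05). Of 4 connexin genes, which form gap junctions, Gja1 rose by 3.14 and 2 fell, Gjc1 (-0.76) and Gjb2 (-0.32), with a median of -0.27. In the matrix list 15 of 27 rose, among them Sparc and tenascin (Tnc), each by 2.39, and laminin Lamb1 by 1.85. The 6 that fell included laminin Lama1 (-1.79), fibronectin (Fn1, -0.90) and nidogen Nid2 (-0.83). Of 45 guidance genes, 28 rose and 9 fell. The ephrin ligand genes Efna5 and Efnb2 rose by 3.78 and 3.76 and the receptor gene Epha1 by 3.00, and Sema4b fell by 1.21.

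**Figure D4:**
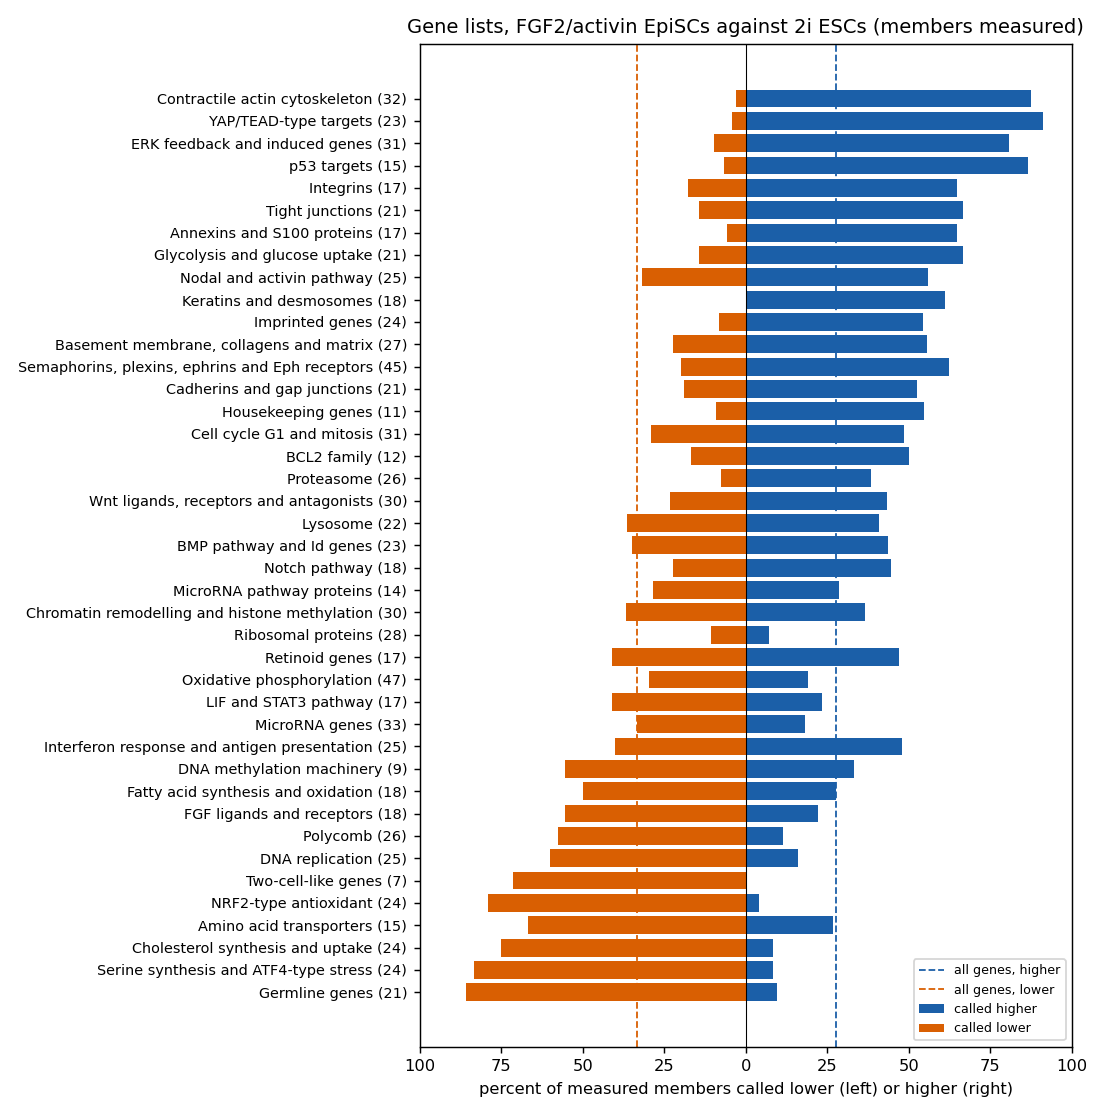
Share of measured members of each gene list called higher (blue, right) or lower (orange, left) in FGF2/activin EpiSCs than in 2i ESCs, in percent, with the number measured in brackets and lists ordered by median change. Dashed lines mark the shares for all genes, 27.8% and 33.5%; contractile, YAP/TEAD-type and ERK lists lie far to the right and germline, serine and antioxidant lists far to the left.

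In the list of serine synthesis and of ATF4-type stress genes, 20 of 24 fell and 2 rose, with a median of -1.02. ATF4 is a factor that raises amino acid synthesis and import when amino acids are short or proteins misfold. Nupr1, a stress-induced chromatin protein gene, was at 8.32, 8.42 and 8.28 in ESCs and at 5.05, 4.99 and 5.16 in FGF2/activin EpiSCs, a change of -3.27 (SE 0.07). Chac1, a glutathione-degrading enzyme gene, fell by 2.92 and Gldc, which encodes the glycine decarboxylase, fell by 2.44. The groups did not overlap at these 3 genes. Mthfd2 and Shmt2, enzymes of mitochondrial one-carbon metabolism, fell (-1.54 and -1.38), and so did the asparagine synthetase gene Asns (-1.13) and Atf4 itself (-0.45). Mthfd1, the cytosolic enzyme, rose by 0.34 and Ddit4, an mTOR inhibitor gene, by 1.81. Of 15 amino acid transporter genes 10 fell and 4 rose, with the glycine transporter Slc6a9 (-1.61) and the arginine transporter Slc7a1 (-1.44) lowest. In the direct test 18 of the 24 serine and ATF4 genes were lower and 2 higher than in CHIR/XAV EpiSCs, where Chac1 averaged 8.03 and Mthfd2 9.71.

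The letters TGATGNAA, as in elements bound by CEBP and ATF factors, were in 24% of 25 promoter windows of this list and in 3.97% of all windows, on either strand. The genes with a match were Asns, Chac1, Nupr1, Slc7a11, Trib3 and Vldlr. The 250 bases before the start of Nupr1 (chr7:126625471-126625720, minus strand), which fell most among them, read as follows with the match in capitals.
Nupr1: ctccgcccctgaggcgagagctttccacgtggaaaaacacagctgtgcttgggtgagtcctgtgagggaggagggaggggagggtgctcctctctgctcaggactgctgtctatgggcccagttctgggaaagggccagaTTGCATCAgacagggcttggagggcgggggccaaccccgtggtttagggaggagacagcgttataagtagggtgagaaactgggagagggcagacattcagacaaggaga

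Of 24 NRF2-type antioxidant genes 19 fell, 1 rose (Hmox1, by 0.43) and 4 were not called, with a median of -0.46. Nqo1, the quinone reductase most used as a readout of NRF2, was at 9.04, 9.14 and 9.06 in ESCs and at 5.13, 5.24 and 5.10 in FGF2/activin EpiSCs, a 15.2-fold fall (limma adjusted p = 9.45e-15, Benjamini-Hochberg). The CHIR/XAV EpiSCs stood at 9.07. Gstp1, a glutathione transferase gene, was at 10.70, 10.64 and 10.59 in ESCs and 7.64, 7.77 and 7.45 in FGF2/activin EpiSCs, against 11.38 in CHIR/XAV EpiSCs. At both genes the CHIR/XAV EpiSCs lay at or above the ESCs. Glutathione synthetase (Gss) fell by 2.00 and the mitochondrial dismutase gene Sod2 fell by 1.51, and there the CHIR/XAV means, 6.89 and 9.86, were nearer to FGF2/activin EpiSCs. The element TGACNNNGC was in 33.3% of 27 windows of the list and in 12.4% of all windows; Nqo1 and Gstp1 had no match in this window.

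Of 24 genes of cholesterol synthesis and uptake 18 fell and 2 rose, with a median of -0.63. Insig1, a feedback regulator of SREBP processing, fell by 1.61, lanosterol synthase (Lss) by 1.25 and squalene synthase (Fdft1) by 1.11, and the regulator gene Srebf2 by 0.45. Insig1 was at 10.68, 10.58 and 10.60 in ESCs and 8.92, 9.05 and 9.04 in FGF2/activin EpiSCs. The letters TCACNCCAC, of the sterol regulatory element type, were in 1 of 25 promoter windows of this list (4.0%), that of Hmgcs1. Of all windows, 1.24% had a match. In the fatty acid list 9 of 18 fell and 5 rose. Cpt1a, which encodes the enzyme that admits long-chain fatty acids to mitochondria, fell by 3.51, from 9.87, 9.84 and 9.79 to 6.50, 6.18 and 6.29, and Acly, the cytosolic citrate lyase, by 1.09. Acadl, a dehydrogenase gene of the same oxidation pathway, rose by 1.38.

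Of 21 genes of glycolysis and glucose uptake, 14 rose, 8 of them by 2-fold or more, 3 fell and 4 were not called, with a median of 0.69. In the uptake role 1 of 3 rose, the glucose transporter gene Slc2a1 (1.36). The lactate exporter gene Slc16a3 was at 6.66, 6.57 and 6.57 in ESCs and 9.89, 9.79 and 9.82 in FGF2/activin EpiSCs, a rise of 3.24. Pfkl, the liver-type phosphofructokinase, rose by 2.52 and Ldha by 1.65, whereas Ldhb fell by 1.5 and Pfkp by 0.60. In the direct test against CHIR/XAV EpiSCs, 8 of the 21 genes were higher and 4 lower, with a median difference of 0.04. Of 47 oxidative phosphorylation genes 9 rose and 14 fell, none by 2-fold. Of 28 ribosomal protein genes 2 rose and 3 fell, or 9 fell with arrays centred on the single-symbol genes.

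**Figure D5:**
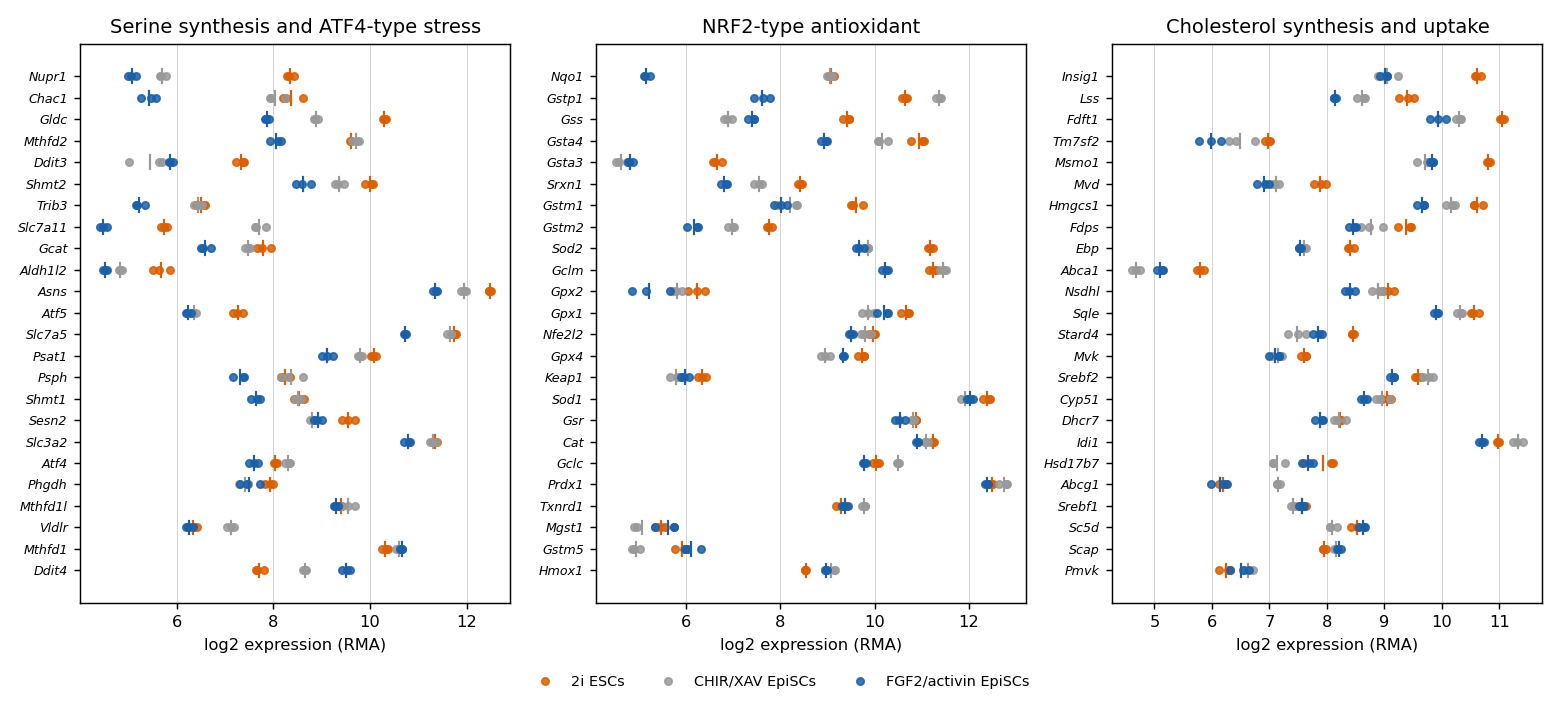
Log2 expression on each array for all measured genes of serine synthesis and ATF4-type stress (left), NRF2-type antioxidant defence (middle) and cholesterol synthesis and uptake (right), with 1 point per array and a bar at each group mean. FGF2/activin EpiSC points lie to the left for most genes; CHIR/XAV EpiSCs lie with the ESCs for Nqo1 and Chac1.

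Replication, mitosis and death genes set how many cells are made and kept. Of 25 DNA replication genes 15 fell and 4 rose, none by 2-fold (median -0.26), with Gins1 (-0.68) and Pola1 (-0.66) lowest. Of 11 mitosis genes 9 rose and none fell, led by Bub1 (0.55) and Mki67 (0.47). Among G1 regulators Ccnd2 rose by 1.64, and Ccne1 and the retinoblastoma-related Rbl2 fell (-0.89 and -1.17). Of 15 p53 target genes 13 rose and 1 fell (Sesn1, by 1.06). The kinase gene Plk2 rose by 2.89, Btg2 by 2.14 and Mdm2 by 1.04, and Perp, which is also in the desmosome list, by 3.46. In the BCL2 family, where 6 of 12 rose and 2 fell, both the death-opposing Bcl2 (2.51) and the death-promoting Bcl2l11 (1.74) rose. Bcl2 was at 5.61, 5.93 and 5.75 in ESCs and 8.28, 8.27 and 8.25 in FGF2/activin EpiSCs.

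Of 21 germline genes 18 fell and 2 rose, with a median of -1.09. Sycp3, a synaptonemal complex gene, was at 9.06, 9.05 and 8.95 in ESCs and at 5.16, 4.90 and 4.98 in FGF2/activin EpiSCs, a change of -4.0 (SE 0.08). Hormad1, a meiotic chromosome axis gene, fell by 3.47 and Mael, of the piRNA pathway, fell by 3.41, as did the RNA helicase and RNA-binding protein genes Ddx4 (-2.85) and Dazl (-2.75). In the direct test against CHIR/XAV EpiSCs none of the 21 genes was higher and 13 were lower, with a smaller median difference of -0.29. The CHIR/XAV EpiSCs were at 8.76 for Sycp3 and 7.44 for Mael, near the ESC values, but at 5.66 for Hormad1. Tdrkh, a piRNA pathway gene, rose by 1.09. With the dimmest 40% of genes left out, 10 of the 21 members were still tested, and 9 of these were called lower, the same 9 as among all genes. The letters GCGGGAA, of the type bound by E2F6, were in 26.1% of 23 windows of the list and in 4.6% of all windows, and the genes with a match were Ddx4, Hormad1, Slc25a31, Sycp3 and Tuba3a. The 250 bases before the start of Sycp3 (chr10:88459337-88459586, plus strand), which fell most, are shown with the match in capitals.
Sycp3: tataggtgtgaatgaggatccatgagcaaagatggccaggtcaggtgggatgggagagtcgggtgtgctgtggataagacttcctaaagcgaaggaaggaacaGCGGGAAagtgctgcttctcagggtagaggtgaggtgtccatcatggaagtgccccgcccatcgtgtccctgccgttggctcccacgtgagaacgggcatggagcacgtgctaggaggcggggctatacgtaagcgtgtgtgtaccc

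DNA methylation is written by the Dnmt3 enzymes and removed through Tet enzymes, and Polycomb complexes mark silent developmental genes. Tet2 and Tet1, which oxidise methylcytosine, fell by 3.07 and 0.94, and Tet3 rose by 1.76. Tet2 was at 9.94, 9.85 and 9.78 in ESCs and 6.78, 6.70 and 6.87 in FGF2/activin EpiSCs. The methyltransferase gene Dnmt3b rose by 0.77 and its cofactor gene Dnmt3l fell by 2.79. Of 26 Polycomb genes 15 fell and 3 rose, with the PRC2 partner genes Epop and Mtf2 lowest (-1.25 and -1.10), and the catalytic Ezh2 lower by 0.19; Kdm2b, which brings PRC1 to CpG islands, rose by 1.11. Of 24 imprinted genes 13 rose and 2 fell. Plagl1, a zinc finger factor gene of the imprinted network, was at 5.84, 6.07 and 6.31 in ESCs and 9.25, 9.38 and 9.44 in FGF2/activin EpiSCs. Sgce rose by 2.62, Meg3 by 1.68 and Igf2 by 1.69, and Mest fell by 1.2.

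Antigen presentation and antiviral genes are both induced by interferon. In the combined list 12 of 25 rose and 10 fell. B2m, the light chain of MHC class I, was at 9.09, 9.10 and 9.34 in ESCs and 11.44, 11.53 and 11.51 in FGF2/activin EpiSCs, a rise of 2.32. The peptide-trimming Erap1 rose by 2.66, the loading gene Tapbp by 2.32 and the factor gene Irf1 by 2.52 on its brighter probe set and 0.37 on the other. The proteasome activator genes Psme2 and Psme1 rose by 2.00 and 1.15 and the immunoproteasome subunit gene Psmb10 by 1.79, while of all 26 proteasome genes 10 rose and 2 fell. Ifitm1 and Ifitm3, antiviral membrane protein genes that are high in pluripotent cells, fell (-1.73 and -1.29), and Stat2 fell by 1.48. In the lysosome list (9 of 22 higher, 8 lower) the hexosaminidase gene Hexa fell by 2.78 and Gusb by 1.76. Gusb, B2m and Hprt are often used as reference genes, and here Ppia (-0.03), Tbp (-0.08) and Sdha (0.03) differed least of 11 such genes.

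The median log2 change per autosome or X chromosome ran from -0.11 to -0.03, and without the genes of chromosomes 15, X and Y there were 11282 calls. On the Y chromosome Kdm5d rose by 3.82, from 4.75, 4.64 and 4.87 to 8.45, 8.62 and 8.65, while Eif2s3y and Uty rose by 0.46 and 0.53 from levels already high. Of 726 long noncoding RNA genes, 7.44% were called higher and 44.2% lower, and of the protein-coding genes 29.2% and 33.1%; this difference was not tested.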

How the data were processed

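RNA of 9 samples was hybridised to 1 single-colour array each. The deposited values are on a log2 scale, 1 per probe set; the authors summarised them with RMA, with Partek named beside it, per the submitters' processing notes. No build or version is given in the sources used here, and the values were not normalised further.

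Of 35399 probe sets, 21789 had one gene symbol in the platform annotation, 1621 had several and 11989 none; the last 2 kinds were left out. Where a gene had several probe sets (1001 genes), the one brightest over all arrays was used. This left 19936 genes, of which 19919 matched RefSeq. Array medians ran from 5.57 to 5.65. Arrays were compared by the labels' groups with limma 3.58.1 in R 4.3.3 on all 9 arrays, without covariates. P-values were adjusted by Benjamini-Hochberg over all genes, with a threshold of 0.05, and the fit was tested on simulated data.

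Named genes were the 12 largest rises and 12 largest falls whose groups did not overlap, leaving out clone-like names and well-known markers, up to 3 called members of each list in each direction, and members whose role describes a list. The members and lists were chosen with earlier results of these data known. Alternatives were other scalings, the mean of a gene's probe sets, no dim genes, other limma settings, a replicate block and leaving out each array.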

Additional observations from a re-analysis of the deposited data

How the results depend on the processing

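The counts of called genes moved mainly with the size of change required. Under limma's test against a 1.5-fold change, 2726 genes were called against ESCs, 1800 higher and 926 lower, and 1175 against CHIR/XAV EpiSCs, 732 higher and 443 lower. Without the dimmest 40% of genes, which tests fewer genes, 8686 were called against ESCs, and 3510 of these were lower, against 6680 in the main fit. Of the calls 59.6% were then higher, against 45.3% in the main fit, and the median change was 0.09 instead of -0.08. Many of the lower calls thus lay among the dimmest genes, and the balance between rises and falls depended on them. Leaving out each array in turn gave 10558 to 11793 calls against ESCs, 5075 to 5364 higher and 5483 to 6429 lower, with 1297 to 1369 at least 2-fold higher and 685 to 706 at least 2-fold lower. Against CHIR/XAV EpiSCs it gave 6920 to 8176 calls, 3678 to 4085 higher and 3242 to 4091 lower. Etv5 reversed, to 0.58, with the mean of its probe sets, which move in opposite directions. Centring on the single-symbol genes was added after seeing the data. Of 4575 values of 272 named genes against ESCs under these alternatives, 4456 kept their direction and call, 118 lost the call (91 of them under the 1.5-fold test) and 1 reversed. Of 4323 values of these genes against CHIR/XAV EpiSCs, 3999 kept theirs, 270 lost a call and 54 gained one. Of 1700 counts of list members, 128 moved by over 1.5 times, 71 of them among the 100 counts under the 1.5-fold test and 13 without the dimmest genes.

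Same-numbered arrays of different groups had correlations of their deviations from -0.0705 to 0.239, and differently numbered ones from -0.227 to 0.178. The highest, 0.239, was between replicate 3 of the ESCs and replicate 3 of the FGF2/activin EpiSCs. With 3 arrays in each group these values cannot decide whether same-numbered arrays share a batch. With the replicate number as a block, 12200 genes were called against ESCs and 8246 against CHIR/XAV EpiSCs.

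Signal over background could not be assessed without detection calls, which limits what low values show, and the 3 arrays in each group limit the precision.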
